A study of Homo sapiens with 40 samples.

Results

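The change over a week of OCT4 knockdown was followed in H9 cells, an established human embryonic stem cell line. The 3 arrays of days 5 to 7 were set against the 3 arrays of days 0 to 2, so 6 of the series' 40 arrays carry the comparison. All of these H9 cells grew on Matrigel in mTeSR medium and received lentivirus, with polybrene, encoding a short hairpin RNA (shRNA) against OCT4. For comparison, 2 arms of H1 cells, a second established human embryonic stem cell line, were cultured and transduced in the same way: 8 arrays with OCT4 shRNA and 8 arrays with the control virus, which the labels call H1P. The series also holds H1 arms with NANOG shRNA and with SOX2 shRNA. The NANOG shRNA arm is set beside the neuroectoderm genes, and both arms enter an alternative fit over all arms. Each arm has 1 array per day from day 0 to day 7, and the H9 line has no control arm. Days of a window stand in for replicates, and each arm is a single time course. The p-values therefore reflect how single days vary within a window, which holds technical variation and any trend over those days. In the main fit that spread is estimated over the H9 arm and the H1 arms with OCT4 shRNA and control virus together. It is not the spread between independent cultures or hairpins.

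OCT4, encoded by POU5F1, is a POU-domain transcription factor that binds an octamer sequence in DNA, often next to SOX2, and holds embryonic stem cells in the pluripotent state together with SOX2 and NANOG. SOX2 is also a factor of the early neural plate, where it is kept on as OCT4 disappears. Human embryonic stem cells that lose OCT4 can take up features of several lineages, among them trophoblast or amnion, mesoderm and neuroectoderm. Which of these gene groups moved in H9 cells, and whether they moved as in H1 cells under the same treatment, is what the comparison addresses.

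Levels are normalized probe intensities on a log2 scale, and 13431 genes passed a filter for signal above background, which lay at a level of 6.58. Differences are days 5 to 7 minus days 0 to 2, and a gene is called when its adjusted p in limma (lmFit and eBayes, Benjamini-Hochberg) is under 0.05. The deposited H9 columns had to be realigned: after probe row 13054 their values stood 2 rows out of place. With the values moved, the mean early H9 and early H1 OCT4 shRNA levels correlated at 0.986 over 34267 probes, against 0.220 as deposited. Over the 13431 genes, H9 arrays of neighbouring days correlated at 0.986 to 0.991, and those of days 0 and 7 at 0.956. These are descriptions over genes that share arrays and normalization.

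The labelled cell type was present at the start. On days 0 to 2 the embryonic stem cell markers POU5F1, NANOG, SOX2, LIN28A, DNMT3B, PODXL and EPCAM had mean levels from 10.47 for NANOG to 13.73 for LIN28A. TDGF1, a co-receptor of NODAL, has no probe in the annotation used. In bulk RNA, fewer cells of a type and less RNA per cell cannot be told apart.

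POU5F1 was examined first, as the target of the hairpin. Its levels in H9 cells from day 0 to day 7 were 11.85, 11.54, 11.09, 10.92, 9.97, 9.76, 9.04 and 8.54. The level was lower on every successive day, and even the last array stood well above background. The mean was 9.11 ± 0.61 on days 5 to 7 and 11.49 ± 0.38 on days 0 to 2 (SD, n = 3 each), a log2 difference of -2.38 (SE 0.41, adjusted p = 1.79e-04), or 5.21-fold lower. In H1 cells with OCT4 shRNA the daily levels were 12.33, 10.97, 10.04, 8.69, 7.17, 6.75, 6.77 and 6.46, a difference of -4.45, and the last of these was below background. The test of the 2 changes against each other gave a difference of 2.07 (SE 0.58, adjusted p = 0.0096). POU5F1 thus fell less in H9 than in H1 over the same windows. The fall was already under way within the early window in both lines, so these differences understate the loss since day 0.

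NANOG, a homeobox factor of the pluripotent state, had levels of 10.65, 10.79, 9.99, 9.53, 8.90, 8.50, 8.17 and 8.39 in H9 cells from day 0 to day 7. All 3 late arrays lay below all 3 early ones. The mean was 8.35 ± 0.17 on days 5 to 7 and 10.47 ± 0.43 on days 0 to 2 (SD, n = 3 each), a difference of -2.12 (SE 0.21, adjusted p = 4.95e-07). In H1 cells the change was -2.30, with all 3 late arrays below background, so the H1 value is limited by the floor. The changes of the lines differed by 0.18 (adjusted p = 0.70). A further, dimmer probe of NANOG, tested singly, changed by -0.51 in H9 and was not called (adjusted p = 0.062).

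SOX2 went the other way in H9. Its levels from day 0 to day 7 were 11.66, 11.48, 11.89, 12.44, 12.70, 12.97, 12.82 and 12.93, and every late array lay above every early array. The mean was 12.91 ± 0.08 on days 5 to 7 and 11.68 ± 0.21 on days 0 to 2 (SD, n = 3 each), a difference of 1.23 (SE 0.20, adjusted p = 8.44e-05), or 2.35-fold higher. In H1 cells with OCT4 shRNA SOX2 had levels of 11.47, 11.68, 11.84, 10.96, 10.04, 8.63, 7.91 and 7.84, a change of -3.53. The 2 lines' changes differed by 4.77 (SE 0.28, adjusted p = 1.52e-10). Set against H1 control cells, where SOX2 changed by 0.35, the H9 rise was 0.88 larger, which missed the threshold (adjusted p = 0.063). For each of POU5F1, NANOG and SOX2 in H9, the exact permutation test over 3 against 3 arrays gave a two-sided p of 0.10, the smallest this design allows.

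**Figure D1:**
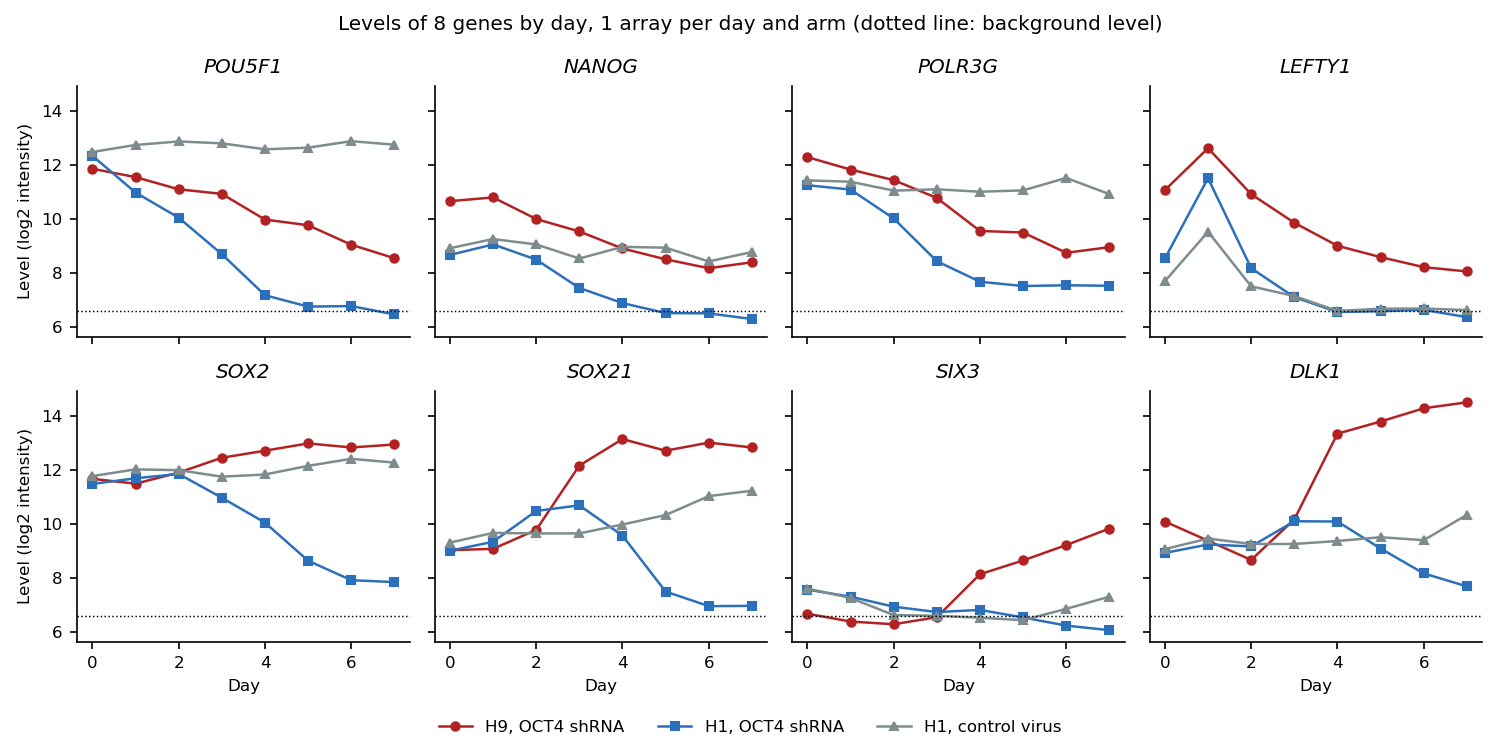
Levels (log2 intensity, vertical axis) of 8 genes against day (horizontal axis), with 1 point per array for H9 cells with OCT4 shRNA (circles), H1 cells with OCT4 shRNA (squares) and H1 cells with control virus (triangles). The dotted line is the background level of 6.58. POU5F1, NANOG and POLR3G fell in both OCT4 shRNA arms, while SOX2, SOX21, SIX3 and DLK1 ended the week higher in H9 than on days 0 to 2.

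The promoters of NANOG and SFRP2, which fell in H9, and of SOX2, which rose, are shown for the letters of short, well-known OCT4 and SOX2 sequences. Each of them holds ATGCAAA, so they are not typical of the genes tested. The promoter of SIX6, a large rise in H9, also has an entry, holds no ATGCAAA and is not shown. Sequences are from RefSeq on GRCh38.p14, from 250 bases before to 50 bases after the start of the gene, 5′ to 3′ on the strand of the gene. Capitals mark the shortened octamer ATGCAAA and the SOX sequence CATTGT, on either strand.
NANOG, chr12:7789152-7789451, plus strand: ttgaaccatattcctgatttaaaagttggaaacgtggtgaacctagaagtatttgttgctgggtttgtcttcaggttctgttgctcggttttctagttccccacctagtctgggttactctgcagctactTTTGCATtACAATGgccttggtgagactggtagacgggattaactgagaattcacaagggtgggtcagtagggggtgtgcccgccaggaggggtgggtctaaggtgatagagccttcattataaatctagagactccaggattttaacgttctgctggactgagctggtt
SFRP2, chr4:153789034-153789333, minus strand: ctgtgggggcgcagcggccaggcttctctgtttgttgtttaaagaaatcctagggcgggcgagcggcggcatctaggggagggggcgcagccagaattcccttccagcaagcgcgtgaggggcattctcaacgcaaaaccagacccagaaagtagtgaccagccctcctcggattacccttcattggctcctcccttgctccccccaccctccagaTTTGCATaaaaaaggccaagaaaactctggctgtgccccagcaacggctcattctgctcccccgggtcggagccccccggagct
SOX2, chr3:181711675-181711974, plus strand: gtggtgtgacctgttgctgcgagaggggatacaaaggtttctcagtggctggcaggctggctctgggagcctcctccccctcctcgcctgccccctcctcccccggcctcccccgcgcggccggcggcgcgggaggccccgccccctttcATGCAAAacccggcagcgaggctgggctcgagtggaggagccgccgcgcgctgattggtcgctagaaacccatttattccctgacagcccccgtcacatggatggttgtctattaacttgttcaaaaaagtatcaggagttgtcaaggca

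The letters ATGCAAA stood in 12 of 217 promoters (5.53%) of the genes that fell at least 2-fold in H9 and have an entry, and in 2 of 181 (1.1%) of those that rose at least 2-fold. Among all 10622 tested genes with an entry 326 (3.07%) held them, and among all 27305 promoters 4.51%. The full octamer ATGCAAAT, which contains the shorter one, stood in 7 of the 217 promoters of falls (3.23%), in 0 of the 181 promoters of rises, in 1.47% of tested genes and in 1.8% of all promoters. CATTGT stood in 6.45% of the promoters of falls, 6.08% of those of rises, 6.2% of those of tested genes and 11% of all promoters. The joined SOX and octamer sequence, in which CATTGT and ATGCAAA stand 1 base apart, was found in the promoters of 2 tested genes, NANOG and NRARP, and NANOG was 1 of the falls. These matches describe the letters in these windows and are no evidence of binding. POU5F1, LEFTY1, DLK1, NNAT, SIX3, POLR3G and THY1 have no entry.

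Over the week 3395 genes were called in H9 cells, 25.3% of those tested, of which 1780 rose (13.3%) and 1615 fell (12%). At least a 2-fold change was reached by 229 genes that rose (1.71%) and 279 that fell (2.08%). Of these 508 genes (3.78%), 493 had late and early arrays that did not overlap, while over all tested genes the late arrays lay wholly above the early ones in 18.8% and wholly below in 17.5%. The median change of all genes was 0.01. Probes before the break, which needed no realignment, measured 197 of the 508.

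DLK1, an imprinted gene of a membrane protein with EGF repeats, changed most among the rises. Its levels from day 0 to day 7 were 10.08, 9.37, 8.66, 10.16, 13.33, 13.78, 14.27 and 14.49, with the step between days 3 and 4. The mean was 14.18 ± 0.36 on days 5 to 7 and 9.37 ± 0.71 on days 0 to 2 (SD, n = 3 each), a difference of 4.81 (SE 0.49, adjusted p = 7.06e-07), or 28.0-fold. DLK1 is measured by a probe before the break. NNAT, an imprinted gene of a small membrane protein of the developing brain, had levels of 10.52, 9.93, 10.03, 11.39, 13.10, 13.16, 13.09 and 13.44, a difference of 3.07 (adjusted p = 1.49e-07). It reached its late level by day 4 and stayed there.

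Several of the other large rises were transcription factors of the forebrain and eye field. SOX21, a SOX factor of neural progenitors, had levels of 9.02, 9.07, 9.77, 12.15, 13.13, 12.70, 13.00 and 12.82 from day 0 to day 7, a difference of 3.56 (SE 0.33, adjusted p = 1.97e-07). It was the earliest of these, with most of the rise between days 2 and 3. In H1 control cells SOX21 changed by 1.32 (adjusted p = 0.071), and the H9 change was 2.24 larger (adjusted p = 0.0070). SIX6, a homeobox factor of the eye field, had levels of 6.63, 7.31, 7.42, 7.77, 8.89, 9.36, 9.82 and 11.05, a difference of 2.96 (adjusted p = 6.84e-07), and was highest on the last day. SIX3, its relative of forebrain and eye, had levels of 6.67, 6.38, 6.28, 6.54, 8.13, 8.64, 9.21 and 9.82, a difference of 2.78 (adjusted p = 2.53e-06). Only 1 of its 3 early arrays was above background, and its level was higher on each day after day 2. LMO1, a LIM-only transcriptional cofactor, was below background on all early arrays and at 9.12 ± 0.43 on days 5 to 7 (SD, n = 3), at least 5.84-fold higher (adjusted p = 1.15e-06). LMO1 also rose in H1 cells with OCT4 shRNA, at least 2.52-fold (adjusted p = 6.58e-05). The lines' changes differed by 1.09 (adjusted p = 0.048).

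The remaining large rises were secreted or metabolic genes. FRZB, a secreted antagonist of WNT, had levels of 7.04, 7.10, 7.44, 7.89, 9.59, 10.48, 10.31 and 10.70 from day 0 to day 7, a difference of 3.30 (adjusted p = 8.18e-08), and its probe lies before the break. IGFBP3, a secreted binding protein of insulin-like growth factors, had levels of 7.13, 7.14, 7.05, 7.08, 8.12, 9.01, 11.40 and 11.86, a difference of 3.65 (SE 0.67, adjusted p = 3.39e-04). It rose late, and its late arrays spread widely (SD 1.53). TXNIP, an arrestin-like protein that binds thioredoxin and limits glucose uptake, had levels of 9.87, 10.21, 10.64, 12.44, 13.50, 13.24, 13.44 and 12.85, a difference of 2.94 (adjusted p = 2.18e-07). COXFA4L2, formerly NDUFA4L2, is a mitochondrial protein whose gene responds to low oxygen, and it changed by 2.97 (adjusted p = 1.15e-06). It changed by 2.22 in H1 control cells as well (adjusted p = 0.0036), and the H9 change was not shown to differ from that (0.75 larger, adjusted p = 0.36).

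LEFTY1, a secreted inhibitor and target gene of NODAL, changed most among the falls. Its levels from day 0 to day 7 were 11.06, 12.61, 10.91, 9.85, 9.0, 8.58, 8.21 and 8.05, with a peak on day 1 and lower values on each day after it. The difference was -3.25 (SE 0.59, adjusted p = 2.99e-04). H1 control cells also had their highest LEFTY1 level on day 1 (9.52) and a change of -1.58 (adjusted p = 0.25), and the H9 fall was not shown to exceed it (adjusted p = 0.27). CHGA, chromogranin A of secretory granules, had levels of 10.60, 11.36, 10.27, 9.73, 8.41, 7.61, 7.58 and 7.45, a difference of -3.20 (SE 0.29, adjusted p = 1.46e-07), with a probe before the break. POLR3G, a subunit of RNA polymerase III that is abundant in pluripotent cells, had levels of 12.28, 11.82, 11.43, 10.77, 9.55, 9.49, 8.74 and 8.95, a difference of -2.79 (adjusted p = 1.48e-06). Both genes were lower on all 3 late arrays than on any early one.

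The other large falls were THY1, the surface protein CD90 (-2.56), RAB17, a small GTPase of epithelial membrane traffic (-2.51), BRINP1 (-2.39), TRIML2 (-2.22), the amino acid transporter SLC7A5 (-2.19) and the G protein subunit GNA14 (-2.18). Adjusted p-values of these 6 genes ran from 9.29e-08 for BRINP1 to 1.88e-05 for GNA14. SLC7A5 had levels of 12.36, 12.61, 12.02, 10.96, 10.08, 9.84, 10.17 and 10.42 from day 0 to day 7. It was lowest on day 5 and slightly higher on the last days. In H1 control cells SLC7A5 changed by -1.16 (adjusted p = 0.038) and TRIML2 by -1.09 (adjusted p = 0.073). The H9 falls of SLC7A5 and TRIML2 were not shown to differ from those changes (adjusted p = 0.090 and 0.088).

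**Figure D2:**
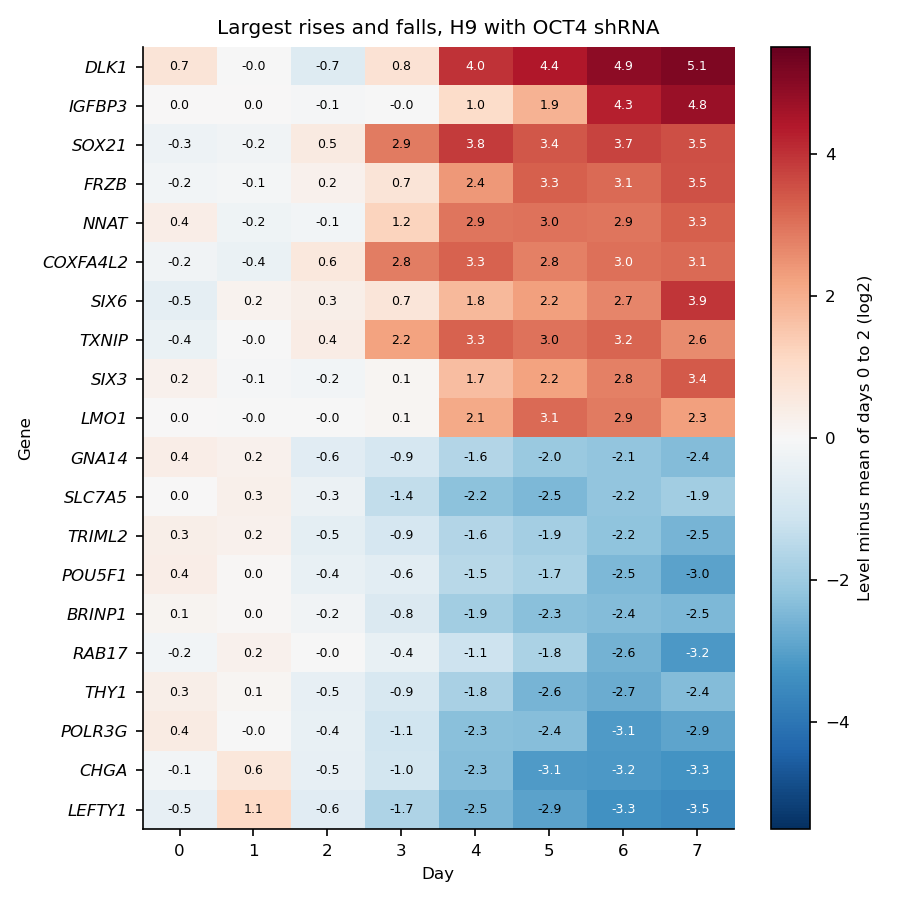
Level of the 10 largest rises and 10 largest falls in H9 cells with OCT4 shRNA, as the log2 difference of each day's array from the gene's mean of days 0 to 2, with days along the horizontal axis and genes down the vertical axis. Red is higher and blue is lower. SOX21, COXFA4L2 and TXNIP were more than 2 units up on day 3, whereas IGFBP3 passed that size on day 6.

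Pluripotency genes mostly fell, while over all genes 12% fell and 13.3% rose in H9. Of 41 tested members of a list of 46, 22 fell and 3 rose, with a median change of -0.54, against -2.06 in H1 cells, where 33 fell and 2 rose (over all genes, 21.3% fell and 22.4% rose in H1). Beside POU5F1, NANOG, LEFTY1, POLR3G and THY1, members that fell included GAL (-2.06), L1TD1, an RNA-binding protein (-1.93), the zinc finger factor ZSCAN10 (-1.58), the secreted WNT modulator SFRP2 (-1.56), the de novo DNA methyltransferase DNMT3B (-0.81) and PODXL, a surface sialoprotein (-0.86). The summed intensity of the list was 79920 to 91710 on days 5 to 7 and 117100 to 146900 on days 0 to 2.

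Several central members did not fall by the test. LIN28A, an RNA-binding protein that blocks let-7 processing, was at 13.68 ± 0.17 on days 5 to 7 and 13.73 ± 0.16 on days 0 to 2 (SD, n = 3 each), a change of -0.05 (adjusted p = 0.87), against -1.18 in H1. DPPA4 changed by -0.51 (adjusted p = 0.075) and UTF1 by -0.08 (adjusted p = 0.84), while their changes in H1 were -2.55 and -2.54. Those that rose were SOX2, LIN28B, the paralogue of LIN28A (0.76, adjusted p = 0.0012), and HESX1, a homeobox factor of stem cells that is also expressed in the anterior forebrain and pituitary (1.98, adjusted p = 3.47e-05). HESX1 changed by -1.78 in H1 cells, and the 2 changes differed by 3.76 (adjusted p = 9.18e-07). The difference between the lines was called for 24 of the 41 members, 22 of them higher in H9 and 2 lower (all genes: 14% higher, 13.7% lower).

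Neuroectoderm genes gave the most rises of any lineage list in H9. Of 26 tested members of a list of 32, 13 rose and 2 fell (all genes: 13.3% rose, 12% fell). The median change was 0.56. As for all lists, the members were chosen with earlier results of these data known, so the count and its rank may reflect that choice. Beside SOX21, SIX3, SIX6, LMO1 and DLK1 the rises were RAX (1.54) and LHX2 (1.29) of the eye field, OTX2 of fore- and midbrain (1.17), PAX6 (1.13), LHX5 (1.10), the neural cadherin CDH2 (1.15), the adhesion molecule NRCAM (0.86) and the filament gene NES (0.58). Late levels of several remained modest: PAX6 was at 7.78 ± 0.70, RAX at 8.03 ± 0.74 and LHX5 at 7.85 ± 0.18 on days 5 to 7 (SD, n = 3 each). The summed intensity of the list, to which DLK1 contributes, was 53190 to 64870 on days 5 to 7 and 24230 to 28560 on days 0 to 2. The falls were EMX2, a homeobox factor of the dorsal forebrain (-0.85), and TUBB3, a tubulin of neurons (-0.82, adjusted p = 0.039).

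Other members of the list were not called. DCX, a microtubule protein of young neurons, changed by -0.003 (adjusted p = 0.99) and HES5, a NOTCH target of neural progenitors, by 0.05 (adjusted p = 0.87). SOX1 did not pass the background filter, and SOX3 and ZIC2 changed by 0.05 and -0.02. In H1 cells with OCT4 shRNA 1 member of the list, LMO1, rose and 10 fell, with a median of -0.41 (all genes: 22.4% rose, 21.3% fell). The 2 lines' changes differed for 19 members, 18 higher and 1 lower in H9 (all genes: 14% higher, 13.7% lower). Against H1 control cells 8 members changed more and 1 less in H9 (all genes: 2.73% each way), and the others, PAX6 (0.33, adjusted p = 0.67) and OTX2 (0.55, adjusted p = 0.43) among them, were not shown to differ from the control drift. Leaving out any 1 of the 6 arrays gave 13 to 15 members called higher, and 1 called lower without day 0, 1, 5 or 6, where TUBB3 lost its call.

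**Figure D3:**
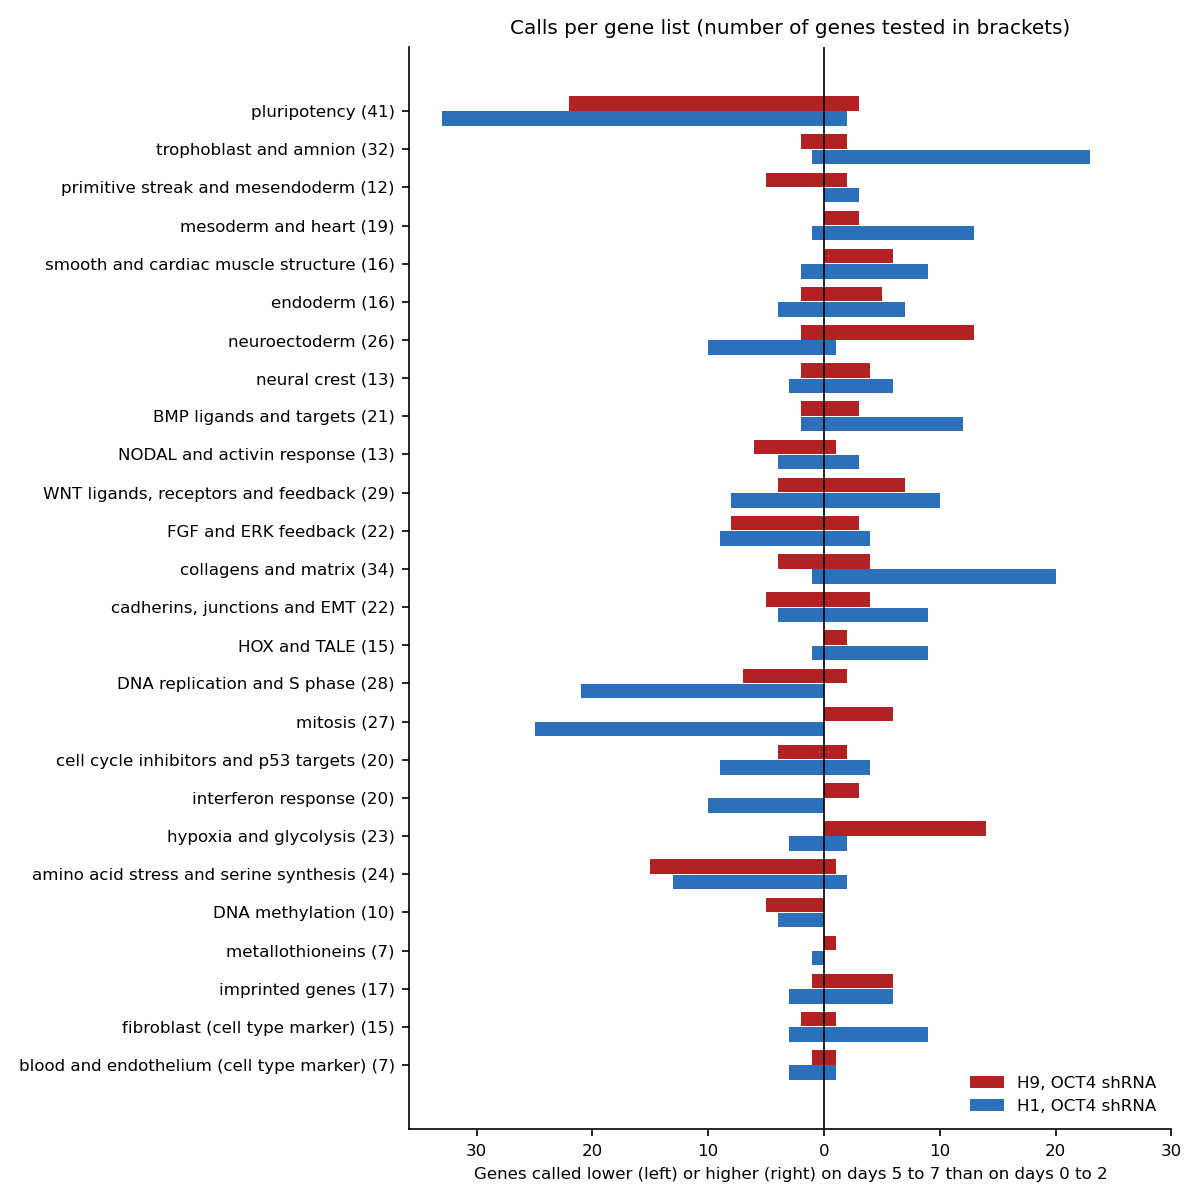
Number of genes called lower (left) or higher (right) on days 5 to 7 than on days 0 to 2 in each gene list, for H9 cells with OCT4 shRNA (upper bar of each pair) and H1 cells with OCT4 shRNA (lower bar), with the number of genes tested in brackets. In H9 neuroectoderm had 13 higher and 2 lower, against 1 and 10 in H1, and trophoblast and amnion had 2 and 2, against 23 and 1.

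Trophoblast and amnion genes, the group with the most rises among lineage lists in H1 cells, showed little change in H9. Of 32 tested members of 41, 2 rose and 2 fell in H9 (median 0.08), while 23 rose and 1 fell in H1 (median 1.26). Over all genes 13.3% rose and 12% fell in H9, and 22.4% rose and 21.3% fell in H1. The rises in H9 were IGFBP3 and TFAP2C (0.82, adjusted p = 0.034), and the falls EOMES (-1.13) and the keratin KRT18 (-0.75). HAND1, a basic helix-loop-helix factor of amnion, trophoblast and early heart, had H9 levels of 5.73, 5.75, 5.83, 6.21, 5.89, 6.03, 5.88 and 6.06 from day 0 to day 7, all below background. In H1 cells with OCT4 shRNA HAND1 reached 14.13 on day 5. GATA3, KRT7 and ISL1 had H9 means of 6.20, 6.37 and 6.36 on days 5 to 7, also under the background level. Of the 32 members 14 were below background on all 6 H9 arrays, and TFAP2C lost its call without day 0, 1, 5 or 6.

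Mesoderm and muscle lists moved little or modestly. Of 19 mesoderm and heart genes tested, 3 rose and 0 fell in H9. The 3 rises are near the 13.3% of all genes that rose (12% fell). They were MEIS2, a TALE homeobox factor (2.19), SNAI2, a repressor of epithelial genes (1.02), and MESP1 (0.61). Further probes of SNAI2 and MEIS2, tested singly, changed by 0.38 and 0.12 and were not called (adjusted p = 0.28 and 0.54). MESP1 was near background, with 2 of 3 late arrays above it. In H1 cells 13 of the 19 rose (over all genes, 22.4% rose in H1). Of 16 muscle structure genes 6 rose in H9 and none fell, led by the tropomyosin TPM1 (1.10), the slow troponin TNNT1 (1.04), calponin CNN1 (0.79, lost without day 0) and smooth muscle actin ACTA2 (0.76), with a median of 0.55. Leaving out the day 6 array left 3 of the list called, and ACTA2 lost its call without day 1, 2, 6 or 7. Of 15 HOX and TALE genes 2 rose, MEIS2 and PKNOX2 (0.66), against 9 in H1, and no HOX gene was called in H9.

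Of 12 primitive streak genes tested 5 fell and 2 rose. For this and the next lists, the shares over all genes in H9 were 12% for falls and 13.3% for rises. EOMES (-1.13), FOXA2 (-1.09), MIXL1 (-0.91), APLNR (-0.79) and WNT3 (-0.46) fell, and FGF8 (1.37), a ligand also made at brain organizers, and MESP1 rose. EOMES, MIXL1 and WNT3 were above background on all early arrays and on none of the late ones. In H1 3 of the 12 rose and 0 fell (over all genes, 22.4% rose and 21.3% fell in H1). Among 16 endoderm genes 5 rose in H9, led by CYP26A1, which degrades retinoic acid (2.22), FLRT3 (1.91) and the chemokine receptor CXCR4 (1.39), and 2 fell, FOXA2 and AFP (-0.77). CYP26A1 changed by 1.46 and AFP by -0.76 in H1 control cells, and the H9 changes were not shown to differ from these (adjusted p = 0.56 and 0.99). CXCR4 was the 1 member of the list whose H9 change exceeded the control change by the test (1.23, adjusted p = 0.013). Of 13 neural crest genes SOX10 (1.24), CDH6 (1.10), SNAI2 and NGFR (0.39) rose, and FOXD3 (-0.85), which marks stem cells as well as crest, and ERBB3 (-0.45) fell. Calls in these lists that hung on single arrays were AFP (lost without day 0, 5 or 6), CDH6 (without day 1, 2 or 7) and ERBB3 (without day 0, 1, 6 or 7), and 2 crest genes were called higher without day 1 or day 7.

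Collagens and matrix genes were as many higher as lower in H9, with 4 each of 34 tested and a median of -0.04. Both counts are near the shares of all genes in H9, 13.3% for rises and 12% for falls. In H1 cells 20 rose and 1 fell (median 1.06), where 22.4% of all genes rose and 21.3% fell. The lines' changes differed for 21 members, 2 higher and 19 lower in H9 (all genes: 14% higher, 13.7% lower). COL1A1 (1.12) and the laminin chain LAMB1 (0.97) rose in H9 while COL5A2 (-1.34) and COL6A3 (-0.62) fell. Without day 1, 2 or 6 the list had 1 member called lower, and without day 0 or 7 it had 2 called higher. COL3A1 was at 6.40 ± 0.04 on days 5 to 7 and 6.50 ± 0.07 on days 0 to 2 (SD, n = 3 each), below background on all of these arrays. Among junction genes the epithelial claudin CLDN7 (-1.17), CDH1, which is E-cadherin (-0.58), and EPCAM (-0.51) fell, and N-cadherin CDH2 (1.15), ZEB2 (1.12) and CDH11 (0.95, lost without day 7) rose. In H1 cells CDH1 changed by 0.63, and the 2 changes differed by -1.21.

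Markers of other cells stood beside these lists as follows. Of 15 tested fibroblast markers 1 rose and 2 fell (all genes: 13.3% rose, 12% fell). Of the 15, 6 were below background on all early and late arrays. DCN, LUM, FAP, PRRX1 and PDGFRA had window means under background. The summed intensity of the list was 8868 to 9925 on days 5 to 7 and 10730 to 11040 on days 0 to 2. The calls were COL1A1 upward and THY1 and COL6A3 downward, the last of these lost without day 1, 2, 5 or 6. Of 16 blood and endothelium markers 7 passed the filter, and 2 were above background on every late array. VWF, of endothelium, was at least 2.81-fold higher (adjusted p = 2.57e-06) and the receptor TEK was lower (-0.62, lost without day 1, 2 or 6), while PECAM1 and CDH5 did not pass the filter. The part of such cells in the matrix and muscle results was not tested.

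Signalling genes were read by role. NODAL, the ligand itself, was not above background on any late array but was on each early array, at least 2.39-fold lower (adjusted p = 6.75e-04). Its target or feedback genes LEFTY1, PMEPA1 (-1.31), SMAD7 (-0.95) and SKIL (-0.49) and the related ligand GDF3 (-0.96) fell, and the activin-binding protein FST rose (2.02, adjusted p = 4.64e-05). That made 6 falls and 1 rise of 13 tested, with a median of -0.49, where H1 control cells had a median of -0.41 and 0 calls in this list (over all genes in the control arm, 0.194% fell and 0.119% rose). None of the 13 differed in its change from the H1 control by the test. The shares over all genes in H9 were 12% for falls and 13.3% for rises.

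Of 22 genes of FGF signalling and its ERK feedback 8 fell, 3 rose and 11 were not called, with a list median of -0.03. Over all genes 12% fell in H9 and 13.3% rose, and the rises of the list are near that share. The dual-specificity phosphatases DUSP5 (-1.95) and DUSP6 (-1.28), the Sprouty inhibitor SPRY4 (-1.25), the ETS factor ETV4 (-1.19), MYC (-1.36) and IER3 (-1.79) fell. The rises were the immediate early gene EGR1 (1.94, lost without day 6), the receptor FGFR3 (1.58, lost without day 5) and FGF8. Against the H1 control change 2 members were lower and 1 higher in H9 (all genes: 2.73% each way). IER3 changed by 2.40 in H1 cells with OCT4 shRNA, and the lines' changes differed by -4.19 (adjusted p = 2.54e-07).

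Of 29 WNT genes 7 rose and 4 fell, and the falls are near the share of all genes (13.3% rose, 12% fell). The rises were of the ligand carrier WLS (2.19), the receptors FZD5 (1.46), FZD2 (1.15), FZD8 (1.01), FZD3 (0.76) and ROR2 (0.81), and the antagonist FRZB. The falls were of the ligand WNT3, the secreted SFRP2 and the feedback genes AXIN2 (-0.83) and APCDD1 (-0.47), and the list had 2 called lower without day 1, 6 or 7. Of 21 BMP ligands and targets 3 rose and 2 fell, near the 13.3% and 12% of all genes, and none differed from its H1 control change by the test. ID2, a helix-loop-helix inhibitor, rose by 2.56 (SE 0.58, adjusted p = 0.0022). The falls were SMAD7 and the pseudoreceptor BAMBI (-0.83), and the other rises the ligand BMP7 (0.45) and the antagonist GREM1 (0.90). Without day 0, 1, 5 or 7 the list had 1 called lower. ID1 and ID3, also BMP targets, changed by 0.23 (adjusted p = 0.81) and -0.03 (adjusted p = 0.95). In H1 cells 12 of the 21 rose, where 22.4% of all genes rose. Of the list 10 changed less in H9 than in H1, with 0 the other way (all genes: 13.7% lower, 14% higher).

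Genes of low oxygen response and glycolysis rose together. Of 23 tested 14 rose and 0 fell (all genes: 13.3% rose, 12% fell), with a median of 0.70. They included ANKRD37 (1.76), NDRG1 (1.64), the collagen prolyl hydroxylase P4HA1 (1.51), the mitophagy receptor BNIP3 (1.24), the glycolytic regulators PFKFB4 (1.17) and PFKFB3 (1.15), and the enzymes PKM (0.79), PGK1 (0.70) and LDHA (0.60). The median change of the list was -0.34, -0.12 and 0.50 on the arrays of days 0, 1 and 2, and from day 3 to day 7 it was 0.53 to 0.84. On this measure the day 2 array lay with the later days and not with days 0 and 1. Without the day 0 array 8 members were called, and without the day 1 array 10. In H1 cells with OCT4 shRNA 2 rose and 3 fell (all genes: 22.4% rose, 21.3% fell). Set against that arm, 11 members changed more in H9 (all genes: 14%). Against H1 control cells, 1 member changed more, P4HA1 (1.27, adjusted p = 0.0097), where 2.73% of all genes did.

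Genes of amino acid stress and serine synthesis fell. Of 24 tested 15 fell and 1 rose (all genes: 12% fell, 13.3% rose), with a median of -0.70. The pseudokinase TRIB3 (-1.79), the serine synthesis enzymes PSPH (-1.46), PSAT1 (-0.84) and PHGDH (-0.67), asparagine synthetase ASNS (-0.95), the transporter chains SLC7A5 and SLC3A2 (-0.80) and the tRNA synthetases AARS1 (-0.99), GARS1 (-0.73) and MARS1 (-0.51) were among them. DDIT4, an inhibitor of mTORC1, rose (1.65, adjusted p = 0.0045). In H1 cells with OCT4 shRNA 13 fell and 2 rose (all genes: 21.3% fell, 22.4% rose). In H1 control cells 2 fell (all genes: 0.194%), with a median of -0.43. No member differed between H9 and the H1 control by the test.

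Most cell cycle genes were not called in H9, where 13.3% of all genes rose and 12% fell. Of 28 S phase genes 7 fell and 2 rose, with a list median of -0.13 over the week and 0.01 on the day 7 array, and without day 0 none was called higher. Among the falls were the ribonucleotide reductase subunit RRM2 (-1.39), cyclin E gene CCNE1 (-1.37) and the licensing factor CDT1 (-1.05). Of 27 mitosis genes 6 rose and 0 fell, with a median of 0.16, and none differed from its H1 control change by the test. The 6 were CCNB2 (0.69), CDK1 (0.51), PTTG1 (0.50), NUSAP1 (0.47), CENPF (0.46) and PLK1 (0.38). Without 1 of the arrays the list had 3 to 5 called higher, with 3 when day 2 or day 6 was left out. In H1 cells 25 of these 27 fell (median -0.97), where 21.3% of all genes fell. Between the lines 22 members differed, all higher in H9 (all genes: 14% higher, 13.7% lower). The cell cycle inhibitor CDKN1A rose (1.09, lost without day 1) and the p53 target PMAIP1 fell (-1.54).

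Smaller groups gave single findings. Over all genes 13.3% rose and 12% fell in H9. All 5 calls among 10 DNA methylation genes were falls: DNMT3B, the remodeller HELLS (-0.81), UHRF1, which recruits DNMT1 (-0.67), TDG (-0.67) and APOBEC3B (-0.69, adjusted p = 0.049). Without day 1 or day 6, 3 of the list were called. Of 17 imprinted genes 6 rose, among them DLK1, NNAT and MEG3, the non-coding RNA that shares the imprinted locus of DLK1 (1.76, adjusted p = 6.01e-06), and GRB10 fell (-1.11). Of 20 interferon response genes BST2 (0.81), B2M (0.65) and IRF9 (0.38) rose and none fell, with a list median of 0.00, and 3 of 20 is near the 13.3% of all genes that rose. In H1 cells 10 of the 20 fell (over all genes, 21.3% fell in H1). IRF9 lost its call without day 0, 1, 2, 5 or 7, and B2M without day 0 or 6. MT1E (1.92, adjusted p = 0.016) was the 1 metallothionein of 7 that was called, which is near the 13.3% of all genes that rose. MT1E lost the call without day 1, 2 or 5. In H1 control cells MT1E changed by 1.51 (H9 minus control 0.41, adjusted p = 0.85), and the list median was 0.93 in H9 and 1.24 in H1 control cells.

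On the arrays of days 2, 3, 4 and 7, genes at least 2-fold above their early mean numbered 13, 79, 221 and 289, and those at least 2-fold below it 3, 39, 154 and 373. H1 cells with OCT4 shRNA had 221 above and 181 below on day 3, and 734 and 778 on day 7. H1 control cells had 35 and 43 on day 7. These counts rest on 1 array a day and carry no test. Comparing days 3 and 4 with days 0 to 2, 569 genes rose (4.24%) and 489 fell (3.64%). These 1058 calls (7.88%) became 392 without the day 0 array and 493 without the day 1 array. That comparison shares its early arrays with the one over the week. SOX21, COXFA4L2 and TXNIP were called in it (adjusted p = 3.73e-05 each). The day on which a gene first lay beyond the midpoint between its early and late mean and stayed there was most often day 4, for 94 of the rises and 121 of the falls.

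**Figure D4:**
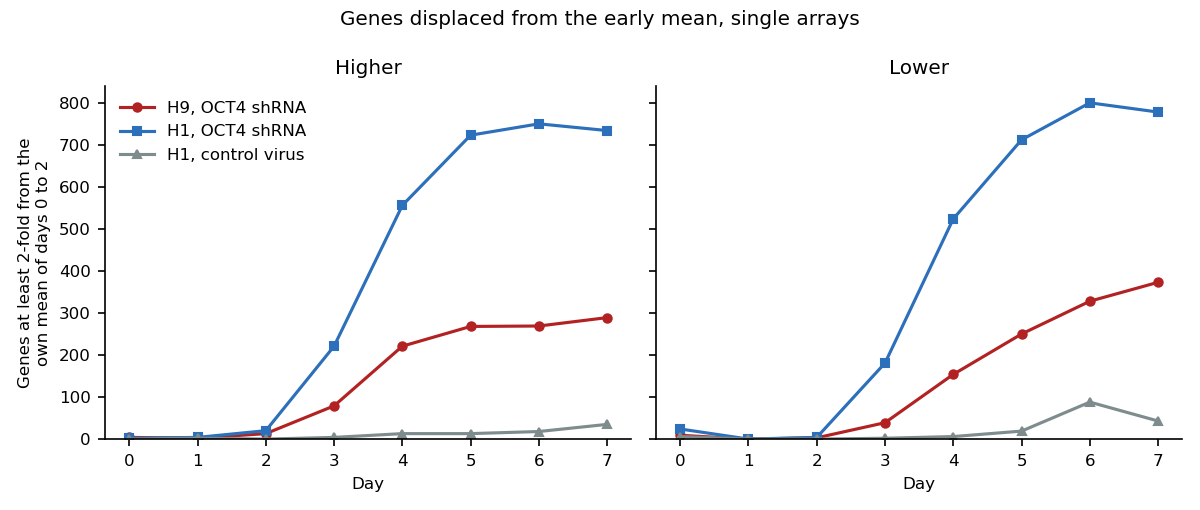
Number of genes at least 2-fold above (left panel) or below (right panel) their own arm's mean of days 0 to 2, counted on each single array, against day. H9 cells with OCT4 shRNA (circles) reached 289 above and 373 below on day 7, between H1 cells with OCT4 shRNA (squares, 734 and 778) and H1 cells with control virus (triangles, 35 and 43).

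The test of H9 against H1 under OCT4 shRNA called 3718 genes (27.7%), 1882 higher and 1836 lower in H9. H1 cells had 690 genes that rose (5.14%) and 701 that fell (5.22%) at least 2-fold. Of the 229 such rises in H9, 58 were also 2-fold rises in H1, which is 25.3% of the H9 rises and 8.41% of the H1 rises. For falls the overlap was 116 genes, 41.6% of the H9 falls and 16.5% of the H1 falls. Another 41 of the H9 rises (17.9%) were called lower in H1, and 17 of the H9 falls (6.09%) were called higher. Over all 13431 genes the changes correlated at 0.322 between the 2 OCT4 shRNA arms, and at 0.427 between H9 and H1 control cells, as a description over genes that share probes and normalization.

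The largest differences with H9 higher were of SOX21 (6.03), DLK1 (5.61), SOX2 (4.77), FABP7, a fatty acid binding protein of radial glia (4.25), SHISA2 (4.14) and FRZB (4.11). FABP7 had H9 levels of 8.41, 8.26, 8.37, 8.18, 8.40, 9.64, 9.70 and 11.17 from day 0 to day 7, and H1 levels of 8.81, 9.87, 9.71, 8.27, 7.33, 6.70, 6.94 and 7.44. Its H9 level was higher from day 5 on, and its H1 level was lower from day 3 on. SHISA2, whose frog relative holds back WNT and FGF receptors, changed by 1.28 in H9 and -2.86 in H1.

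The largest differences with H9 lower were of HAND1 (-6.42), GABRP, a GABA receptor subunit (-6.25), TRIM55, a muscle RING finger protein (-6.00), TGFBI, a matrix protein (-5.90), COL3A1 (-5.24) and IGFBP7 (-5.18). All 6 rose in H1 by between 4.98 and 6.64, and none was called in H9, where their changes lay between -0.20 and 0.22. HAND1, TRIM55 and COL3A1 were below background on all early and late H9 arrays, so for these the size is that of the H1 change. TGFBI was measurable in H9, at 8.62 ± 0.15 on days 5 to 7 and 8.73 ± 0.07 on days 0 to 2 (SD, n = 3 each). IGFBP3 rose in both lines, with changes of 3.65 in H9 and 6.03 in H1, and the difference missed the threshold (-2.38, adjusted p = 0.064).

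**Figure D5:**
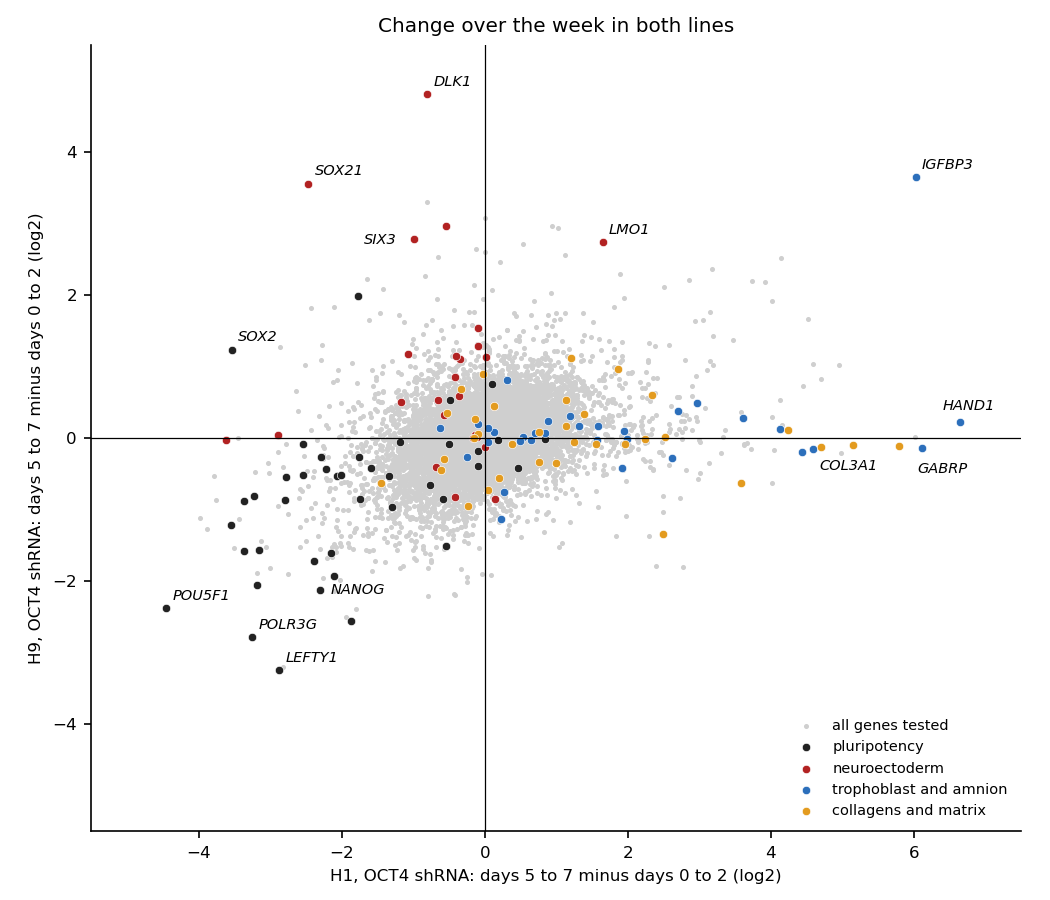
Change over the week (days 5 to 7 minus days 0 to 2, log2) in H9 cells (vertical axis) and H1 cells (horizontal axis), both with OCT4 shRNA, for 13431 genes, with 4 gene lists coloured. POU5F1, NANOG, POLR3G and LEFTY1 were lower in both lines, SOX2 and SOX21 were higher in H9 and lower in H1, and HAND1, GABRP and COL3A1 were displaced along the H1 axis.

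H1 control cells show how genes moved over the same week without OCT4 shRNA. In that arm 16 genes rose and 26 fell. The H9 change differed from the control change for 366 genes upward and 366 downward, although line and hairpin both differ between these arms and cannot be told apart. The 732 calls of this comparison (5.45%) became 416 without day 0, 393 without day 1 and 390 without day 6. Its largest differences upward were of DLK1 (4.32, adjusted p = 0.0012), NNAT (3.46), ANXA1 (3.29, adjusted p = 0.038) and IGFBP3 (3.29, adjusted p = 0.042), and downward of POLR3G (-2.67), CHGA (-2.44), POU5F1 (-2.44, adjusted p = 0.015) and IDO1, a tryptophan-degrading enzyme (-2.21). ANXA1 and IGFBP3 lost this call without the day 7 array (adjusted p = 0.106 and 0.114) and in several other settings. ANXA1, an annexin, had H9 levels of 8.09, 8.48, 7.92, 7.51, 7.62, 8.70, 11.18 and 11.69 from day 0 to day 7, and its change in H9 lost its call without day 6 (adjusted p = 0.058) or day 7 (adjusted p = 0.074).

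The neuroectoderm genes were also set beside H1 cells with NANOG shRNA, a comparison chosen after the data were seen and fitted over all arms, with days 5 and 6 as the late window of that arm. There 17 of the 26 members rose and 3 fell, with a median of 0.85 (all genes: 6.96% rose and 5.95% fell). The H9 change was larger for 3 members and smaller for 6, with a median difference of -0.28 (all genes: 2.07% and 2.47%). SIX6 changed more in H9 (2.80), while PAX6 (-2.31) and EMX2 (-3.06) changed less, EMX2 having changed by 2.21 in the NANOG shRNA arm. SOX2 changed by 0.49 in that arm (adjusted p = 0.087). The NANOG shRNA arm is in the H1 line, so line and target differ together.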

How the data were processed

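Biotinylated cRNA, made from Trizol RNA after DNase I with the Ambion TotalPrep kit for Illumina, was hybridised to bead arrays, per the labels' protocols. The authors deposited 1 linear intensity per probe and array, for 47323 probes. These intensities were already quantile normalized, as their values show, since at least 98.4% of each column's values recur in the first column. The software is not given in the sources used here. The deposited intensities carry no detection call, so background was set from 457 olfactory receptor probes, at an intensity of 145. It is the 99th percentile of a normal distribution with the median of these probes' values and a spread from their median absolute deviation. A further deposited table has 80 value columns that match no label, and they were not used. The NANOG shRNA array of day 7 is on another scale and was left out.

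H9 values after row 13054 were moved by 2 rows, leaving out 30 probes next to that row. Intensities were corrected with normexp (offset 50), taken to log2 and fitted with limma 3.58.1 in R 4.3.3 over 24 arrays, with a mean for each arm and window and 15 residual degrees of freedom. Each gene was read from its brightest probe, and a probe had to exceed background on at least 3 arrays. With probes tested singly, 0 of the 118 genes named by the rule given below had a further such probe called the other way. Further probes of DLK1 and NNAT were called the same way. Some were not called, among them probes of NANOG (adjusted p = 0.062), POLR3G (0.40), MEIS2 (0.54), PSPH (0.97) and MT1E (0.92). The same held for probes of SNAI2 (0.28), KRT18 (0.16), CDK1 (0.17), PTTG1 (0.13), FGFR3 (0.46) and TEK (0.20). The offset and the filter were chosen once the files had been seen. Of the probes 30113 have 1 gene symbol, 8 several and 17202 none. A symbol that is current in the tables given was carried by 30081 probes, and 32 kept an older one. A fold is written "at least" where the dimmer group was below background on every array and was then set to that level. The number of arrays limits the precision. The fit was tested on simulated data.

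The genes named are POU5F1, NANOG and SOX2, the 10 largest called rises and 10 largest called falls in H9 whose late and early arrays do not overlap and whose brighter window is above background on all 3 arrays, up to 4 called members of each gene list with the largest change and every called member against its list's majority, and the called differences that are largest each way, 6 from H1 OCT4 shRNA and 4 from H1 control. Further list members and genes with no call were chosen after their values were seen. The check of further probes and the single gene results of the alternatives cover only the genes named by the rule, not these further ones. The members and lists were chosen with earlier results of these data known, and some choices of gene may reflect them. Per the labels a replicate number is a day, which pairs same-day arrays of different arms. Of 16 same-day pairs 7 had deviations correlating above 0.1, with a median of 0.08. The alternatives were another background step, other filters, all arms in the fit, array weights, all probes singly, the H9 arm alone, a slope over days, only probes before the break, a day block and each array left out in turn.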

Additional observations from a re-analysis of the deposited data

Results flagged for a closer look

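The results given here were singled out because the change under OCT4 shRNA differed between H9 and H1 cells by the test of the difference itself. This held for 3718 genes. The differences with H9 higher (log2, H9 change minus H1 change) were 6.03 for SOX21, 5.61 for DLK1, 4.77 for SOX2, 4.25 for FABP7, 4.14 for SHISA2 and 4.11 for FRZB. Those with H9 lower were -6.42 for HAND1, -6.25 for GABRP, -6.00 for TRIM55, -5.90 for TGFBI, -5.24 for COL3A1 and -5.18 for IGFBP7. Over the same windows POU5F1 changed by -2.38 in H9 and -4.45 in H1, and whether the gene differences follow from that was not tested.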

How the results depend on the processing

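No comparison changed direction under any alternative run. Over the week 3395 genes were called in H9, and leaving out 1 H9 array gave 2540 to 3303. Only the probes before the break, which are fewer, gave 1319 calls, 26.1% of the genes tested there against 25.3% in the main fit. With these probes days 3 and 4 had 427 calls (8.45%, against 7.88%), H1 OCT4 shRNA 2324 (46%) and H1 control 21 (0.416%). H9 against H1 OCT4 shRNA had 1521 (30.1%, against 27.7%) and H9 against H1 control 365 (7.22%, against 5.45%). With all arms in the fit, days 3 and 4 had 1644 calls, H1 control 169 and H9 against H1 control 1107. Array weights gave 556 calls in H1 control and 1939 for H9 against H1 control. Probes tested singly gave 71 in H1 control. The H9 arm alone gave 469 for days 3 and 4. Leaving out 1 H9 array gave 392 to 1450 calls for days 3 and 4, 3101 to 3808 for H9 against H1 OCT4 shRNA and 390 to 1002 for H9 against H1 control. The day was also taken as a block across arms, in which same-day arrays are paired. H9 against H1 OCT4 shRNA then had 3938 calls and H9 against H1 control 942. No call of a gene named by the rule changed. Over the single genes named by the rule 1888 values stayed on their side of the threshold and 119 did not pass it, all in the same direction. Counts of list members moved by over 1.5 times in 73 of the cases run and by less in 543. The cause of these shifts was not tested beyond the smaller number of probes. Signal over background limits the comparison for genes such as HAND1 and TRIM55, which no early or late H9 array measured.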
